A study of Mus musculus with 12 samples.

Results

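The cornified envelope is the cross-linked protein shell that replaces the plasma membrane of dying keratinocytes and makes skin a barrier. The 10 genes described here, taken by name from the 56923 genes of the count table, encode its filaggrin-type and scaffold proteins and the enzymes that join them. They are Flg, Flg2, Hrnr, Rptn, Lor, Ivl, Evpl, Ppl, Tgm1 and Tgm3, and the rule that chose them lists names and holds no measured value. These genes and the marker and gene lists used below were nonetheless chosen with earlier results of these data known. All 10 were in the table and all 10 passed the filter on low counts.

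Flg, Flg2, Hrnr and Rptn encode large S100-fused proteins, each with an S100-type calcium-binding head followed by repeats. Profilaggrin, the Flg product, is cut into filaggrin, which bundles keratin filaments and is later degraded to amino acids that hold water in the stratum corneum. Involucrin (Ivl), envoplakin (Evpl) and periplakin (Ppl) form the first layer of the envelope under the membrane, loricrin (Lor) is its most abundant late component, and the transglutaminases Tgm1 and Tgm3 cross-link them.

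RNA was sequenced from the back skin of 12 female C57BL/6 mice aged 8 to 10 weeks, 3 in each of 4 groups. WT control and WT IMQ mice were littermates of the second genotype, which was labelled Lcn2-/- (a loss of the Lcn2 gene in the whole animal, called a knockdown in the sample labels). IMQ mice received imiquimod cream, which produces psoriasis-like lesions, at 5% on the shaved back for 6 days, and control mice received vehicle cream, although their labels give no treatment. The comparisons ask how the IMQ cream and the Lcn2 label move these genes, alone and together. Lcn2 itself had 320, 173 and 357 counts in the control mice labelled Lcn2-/- against 136, 201 and 86 in WT control mice, and 561, 511 and 830 against 1010, 2723 and 1572 after IMQ, so its reads go against a full loss of transcript and the genotype is given as labelled.

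Library totals lay between 16448226 and 28592110 counts, and 3 counts, taken as the detection floor, corresponded to between 0.105 and 0.182 CPM (counts relative to library size). The lowest count of any of the 10 genes in any mouse was 175, for Tgm3. The extraction protocol in the labels names another tissue, the retina, but 3 of 10 retina markers (Crx, Rpe65 and Nrl) were at 0 in all libraries and none of the 10 exceeded 24 counts, whereas the 20 keratinocyte markers summed to 6685 CPM or more in every library. CPM values use library sizes normalized by edgeR's TMM method. A gene was called when the Benjamini-Hochberg adjusted p of edgeR's quasi-likelihood test, over 18529 tested genes, was under 0.05, and every adjusted p printed for a single gene comes from that test unless another tool is named. Mice were separate animals, and the p-values measure the spread between these 12 libraries only.

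Of the 10 genes, 6 lie in the epidermal differentiation complex on chromosome 3 (GRCm38, GENCODE M21), a cluster of genes for late keratinocyte proteins. From the lower coordinate they are Lor (chr3:92080271-92083142, minus strand), Ivl (chr3:92570902-92573735, minus), Flg2 (chr3:93197278-93221391, plus), Flg (chr3:93273523-93293686, plus), Hrnr (chr3:93319749-93333570, plus) and Rptn (chr3:93393699-93399442, plus). The 4 S100-fused genes lie within 202 kb, and 52132 bases separate the end of Flg2 from the start of Flg. Evpl lies at chr11:116220559-116238077 (minus), Ppl at chr16:5086291-5132421 (minus), Tgm1 at chr14:55700009-55713926 (minus) and Tgm3 at chr2:130012349-130050399 (plus).

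The upstream sequences of 5 of the chromosome 3 genes are shown because Flg and Flg2, which moved in opposite directions after IMQ, carry the same 7 letters close to their starts. Rptn carries the same letters read on the other strand. Lor and Ivl carry a variant, which is the same in both when read on opposite strands. Sequences are from RefSeq (GRCm38.p6), read 5′ to 3′ on the gene's strand up to the base before the RefSeq start. For Flg, the sequence ends 23 bases short of it, where the GENCODE transcript already begins. Capitals mark matches to TGANTCA, a loose form of the letters bound by AP-1, a family of transcription factors active in differentiating keratinocytes. The AP-1 letters have C or G in the middle, which only Lor and Ivl hold here. Flg, Flg2 and Rptn hold A or T there.
Flg (chr3:93273296-93273522, plus): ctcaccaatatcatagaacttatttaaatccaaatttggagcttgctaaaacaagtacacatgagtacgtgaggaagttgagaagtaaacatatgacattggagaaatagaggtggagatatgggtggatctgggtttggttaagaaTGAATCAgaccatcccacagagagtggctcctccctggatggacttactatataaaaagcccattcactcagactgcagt
Flg2 (chr3:93197023-93197272, plus): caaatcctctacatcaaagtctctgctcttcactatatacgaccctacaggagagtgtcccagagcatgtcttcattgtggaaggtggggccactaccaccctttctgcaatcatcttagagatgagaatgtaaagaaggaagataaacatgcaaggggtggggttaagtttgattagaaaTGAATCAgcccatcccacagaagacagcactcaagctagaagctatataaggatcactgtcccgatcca
Rptn (chr3:93393449-93393698, plus): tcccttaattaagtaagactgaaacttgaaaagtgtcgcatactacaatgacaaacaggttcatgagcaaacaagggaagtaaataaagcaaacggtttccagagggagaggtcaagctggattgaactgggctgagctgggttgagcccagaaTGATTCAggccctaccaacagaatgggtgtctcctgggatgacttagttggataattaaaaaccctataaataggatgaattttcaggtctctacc
Lor (chr3:92083143-92083392, minus): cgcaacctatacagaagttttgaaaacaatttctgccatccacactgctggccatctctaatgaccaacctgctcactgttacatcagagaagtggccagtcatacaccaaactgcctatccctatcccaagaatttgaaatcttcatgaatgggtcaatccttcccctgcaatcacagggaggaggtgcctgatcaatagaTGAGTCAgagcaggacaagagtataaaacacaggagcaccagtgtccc
Ivl (chr3:92573736-92573985, minus): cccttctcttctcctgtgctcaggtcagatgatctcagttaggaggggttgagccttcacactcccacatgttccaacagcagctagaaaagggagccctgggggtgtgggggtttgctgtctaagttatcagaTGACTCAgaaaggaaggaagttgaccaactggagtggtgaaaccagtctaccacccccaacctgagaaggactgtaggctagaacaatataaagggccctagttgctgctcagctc

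The match began 103 bases upstream of the RefSeq start in Flg, 69 in Flg2, 96 in Rptn, 48 in Lor and 116 in Ivl. TGANTCA reads the same on both strands. Of the 32851 promoters in the RefSeq table, 6.75% held it in the 250 bases before the start, the stretch searched for every motif. Hrnr and Tgm3 held none of the motifs searched on both strands. Rptn also held AACNGGTT, the letters of the Grainyhead-like factors, present in 1.79% of promoters. One of the promoter entries of Tgm1 held TTCNNNGAA, the letters of STAT factors, at 2 places, which 7.02% of promoters held at least once. That entry (chr14:55713443-55713742, minus) lies wholly inside Tgm1 as placed by GENCODE, so these letters are not upstream of the GENCODE start. None of the members with a promoter entry held the NF-kB motif, which 0.98% of promoters held. Evpl and Ppl had no entry in the table. These matches describe letters only.

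Reads of the repeat proteins are hard to place. Of all windows of 150 bases, the read length, in the longest transcript, 62.4% in Flg, 46.2% in Flg2 and 66.2% in Hrnr occurred more than once in the same transcript, against 0% in the other 7 genes, and none occurred in another gene. How reads with several placements were counted is not given in the sources used here, and levels of these 3 genes set against other genes are uncertain. The pseudogene Rplp0-ps1 lies inside Flg on the same strand (116 counts in all) and the predicted gene Gm37857 inside Rptn (527 counts).

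In WT mice, IMQ raised 8 of the 10 genes and lowered 1, Flg2, while Lor did not pass the test. The background is 14.2% of all tested genes called higher and 14.3% called lower. The median log2 fold change of the 10 genes was 2.10, against -0.02 over all genes tested. The same 9 genes had no overlap between the 3 IMQ and the 3 control mice, where 20.1% of all genes were higher and 20.6% lower without overlap. In whole skin, more cells of a type and more RNA per cell cannot be told apart.

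**Figure D1:**
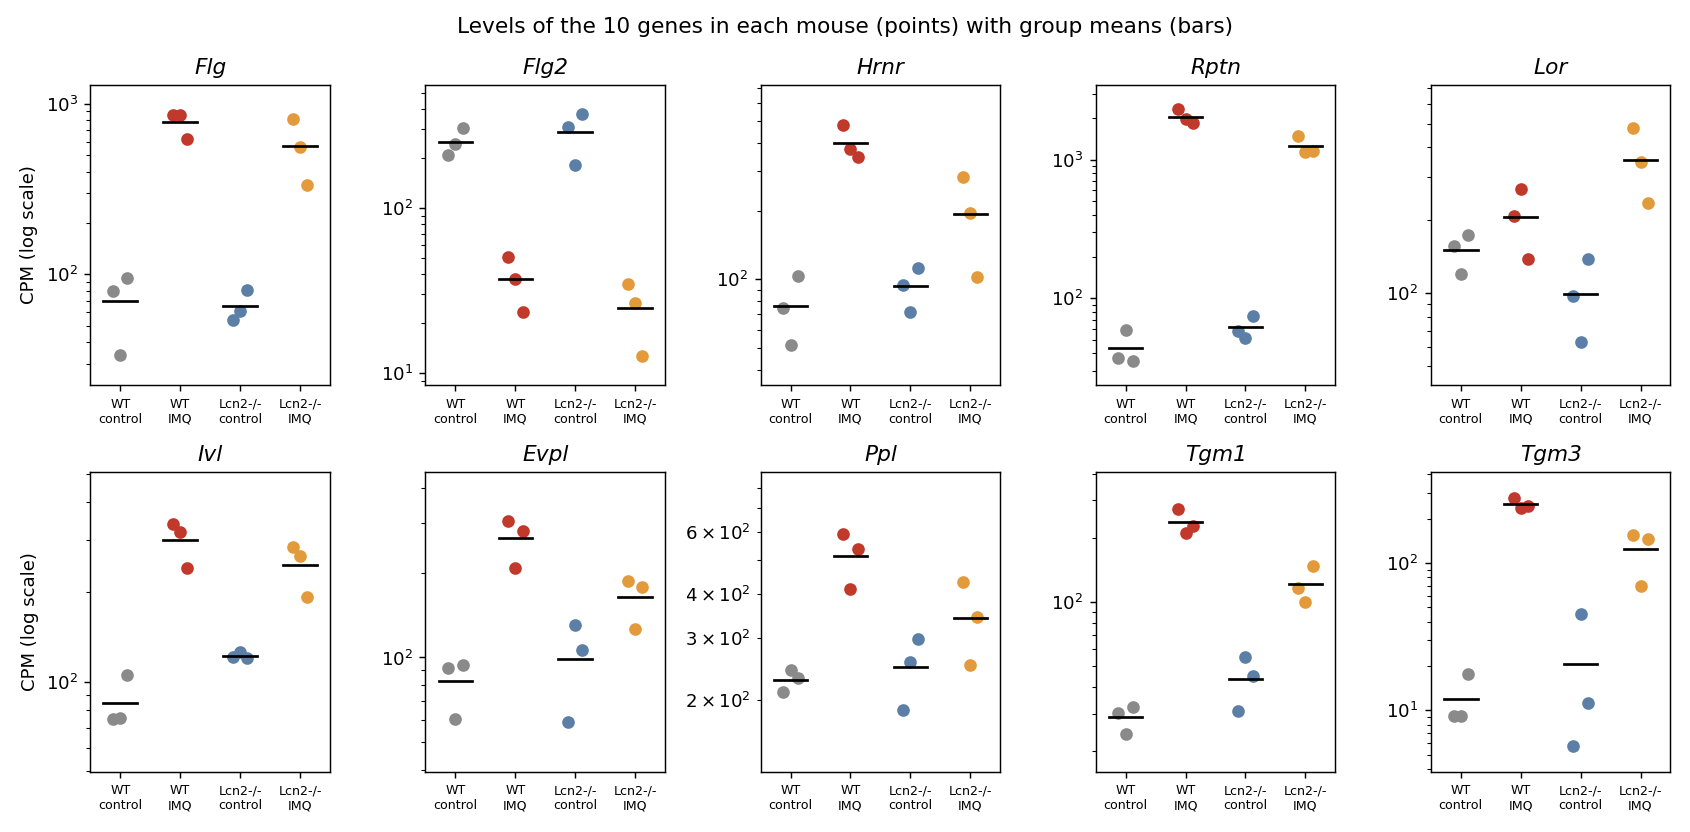
Level of each gene (CPM, log axis) in each of the 12 mice (points), with the mean of each group of 3 (bars). Flg2 is lower and the other genes except Lor are higher in every WT IMQ mouse than in every WT control mouse.

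Among the S100-fused genes, Rptn rose most. It encodes repetin, a repeat protein incorporated into the envelope. Rptn stood at 37.1, 59.1 and 35.4 CPM in WT control mice and at 2311, 1975 and 1843 CPM in WT IMQ mice. The groups were far apart, and the fitted rise was 46.5-fold (log2 5.54, SE 0.26, adjusted p = 3.64e-07). In mice labelled Lcn2-/-, Rptn stood at 58.0, 51.6 and 75.0 CPM without and at 1489, 1143 and 1150 CPM with IMQ. This rise was 20.5-fold (log2 4.36, SE 0.25, adjusted p = 3.29e-06), and again no IMQ mouse came near a control mouse.

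Flg and Flg2 are neighbours with related products, and they moved in opposite directions. Flg stood at 80.2, 33.7 and 94.5 CPM in WT control mice and at 858, 853 and 617 CPM in WT IMQ mice. It rose 11.2-fold (log2 3.48, SE 0.41, adjusted p = 0.000126), and control mouse 2 was the lowest of the 12. Flg2 stood at 208, 243 and 303 CPM in WT control mice and at 50.2, 37.2 and 23.3 CPM in WT IMQ mice. It fell 6.81-fold (log2 -2.77, SE 0.39, adjusted p = 0.000467), with every IMQ mouse below every control mouse.

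The same held for both genes in mice labelled Lcn2-/-. Flg stood at 54.2, 61.0 and 80.4 CPM without and at 812, 557 and 333 CPM with IMQ, a rise of 8.71-fold (log2 3.12, SE 0.40, adjusted p = 0.00042). Flg2 stood at 311, 183 and 371 CPM without and at 34.8, 26.6 and 12.7 CPM with IMQ, a fall of 11.7-fold (log2 -3.54, SE 0.41, adjusted p = 0.000202). In all 6 IMQ mice Flg therefore exceeded Flg2 and in all 6 control mice Flg2 exceeded Flg. Per kilobase of exon, the geometric mean ratio of Flg to Flg2 was 0.282 in WT control and 24.1 in WT IMQ mice, and 0.257 and 25.8 in the corresponding mice labelled Lcn2-/-. This ratio was chosen after its values were seen and is given without a test. Both genes hold repeats, so its level is uncertain.

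Hrnr, which encodes hornerin, a filaggrin-like repeat protein, stood at 74.5, 51.2 and 104 CPM in WT control mice and at 481, 376 and 346 CPM in WT IMQ mice. It rose 5.25-fold (log2 2.39, SE 0.36, adjusted p = 0.00064), with no overlap. In mice labelled Lcn2-/- the values were 94.5, 72.0 and 113 CPM without and 284, 197 and 102 CPM with IMQ. Here 1 IMQ mouse lay within the control range, and the rise of 2.09-fold (log2 1.06, SE 0.34, adjusted p = 0.0417) was called with all 12 mice but in only 1 of the 6 fits that each left out a mouse of these groups, the one without IMQ mouse 3. The adjusted p was 0.0642 in a fit of these 6 mice alone and 0.146 without the filter on low counts.

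Lor was the exception in WT mice. It stood at 157, 119 and 174 CPM in WT control mice and at 209, 268 and 138 CPM in WT IMQ mice, so the groups overlapped (log2 0.45, SE 0.33, adjusted p = 0.332). Among mice labelled Lcn2-/-, it stood at 97.1, 62.7 and 138 CPM without and at 481, 348 and 236 CPM with IMQ. There the groups did not overlap, and Lor rose 3.58-fold (log2 1.84, SE 0.34, adjusted p = 0.00313).

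Ivl, the early scaffold gene, stood at 74.6, 75.1 and 105 CPM in WT control mice and at 338, 319 and 240 CPM in WT IMQ mice. It rose 3.52-fold (log2 1.82, SE 0.19, adjusted p = 4.45e-05), without overlap. For the second genotype, it stood at 121, 126 and 120 CPM without and at 282, 264 and 193 CPM with IMQ, a rise of 2.02-fold (log2 1.01, SE 0.18, adjusted p = 0.00273).

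The plakins Evpl and Ppl, which tie the envelope to keratin filaments and desmosomes and can pair with each other, rose in WT mice. Evpl stood at 92.0, 60.7 and 94.1 CPM in control and at 304, 207 and 281 CPM in IMQ mice (log2 1.68, SE 0.29, adjusted p = 0.00144). Ppl stood at 210.5, 243 and 231 CPM in control and at 591, 413 and 535 CPM in IMQ mice (log2 1.17, SE 0.22, adjusted p = 0.00239). No IMQ mouse overlapped a control mouse for either gene. With the Lcn2-/- label, neither plakin was called and both overlapped between groups. Evpl was 59.0, 130.1 and 106 CPM without and 187, 126 and 178 CPM with IMQ (log2 0.73, SE 0.28, adjusted p = 0.0764), and DESeq2 gave an adjusted p of 0.0397. Ppl was 188, 257 and 297 CPM without and 432, 251 and 345 CPM with IMQ (log2 0.47, SE 0.22, adjusted p = 0.133).

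Both cross-linking enzymes rose. Tgm1, the membrane-bound transglutaminase of the upper epidermis, stood at 30.3, 24.0 and 32.2 CPM in WT control mice and at 273, 212 and 228 CPM in WT IMQ mice. It rose 8.23-fold (log2 3.04, SE 0.23, adjusted p = 4.23e-06), with no overlap. In mice labelled Lcn2-/- it stood at 30.9, 55.1 and 44.8 CPM without and at 117, 100.03 and 147 CPM with IMQ, a rise of 2.78-fold (log2 1.48, SE 0.21, adjusted p = 0.000769), also without overlap.

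Tgm3, a soluble transglutaminase of the epidermis and the hair follicle, stood at 9.15, 9.11 and 17.7 CPM in WT control mice and at 279, 236 and 245 CPM in WT IMQ mice. The rise was 21.2-fold (log2 4.40, SE 0.69, adjusted p = 0.000928), with no overlap. For the second genotype, it stood at 5.75, 45.0 and 11.2 CPM without and at 156, 69.8 and 146 CPM with IMQ (log2 2.60, SE 0.63, adjusted p = 0.0131). The adjusted p was 0.0624 without the filter on low counts and 0.0941 in a fit of these 6 mice alone. Control mouse 2 of that genotype stood well above the other control mice. Hair follicle markers (19 genes measured) summed to 9976 CPM in that mouse, to between 101 and 3702 CPM in the other 5 control mice and to between 53.4 and 123 CPM in IMQ mice, and their part in the Tgm3 values was not tested. Without that mouse the log2 rise of Tgm3 was 3.88, the highest of the 6 fits that each left out a mouse, which began at 2.15.

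Over mice labelled Lcn2-/-, IMQ thus raised 7 of the 10 genes and lowered 1, where 14.1% of all genes were called higher and 11.2% lower. Without overlap between groups, 6 were higher and 1 was lower (23.1% and 22.8% of all genes). Their median log2 fold change was 1.27, against -0.05 over all genes.

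**Figure D2:**
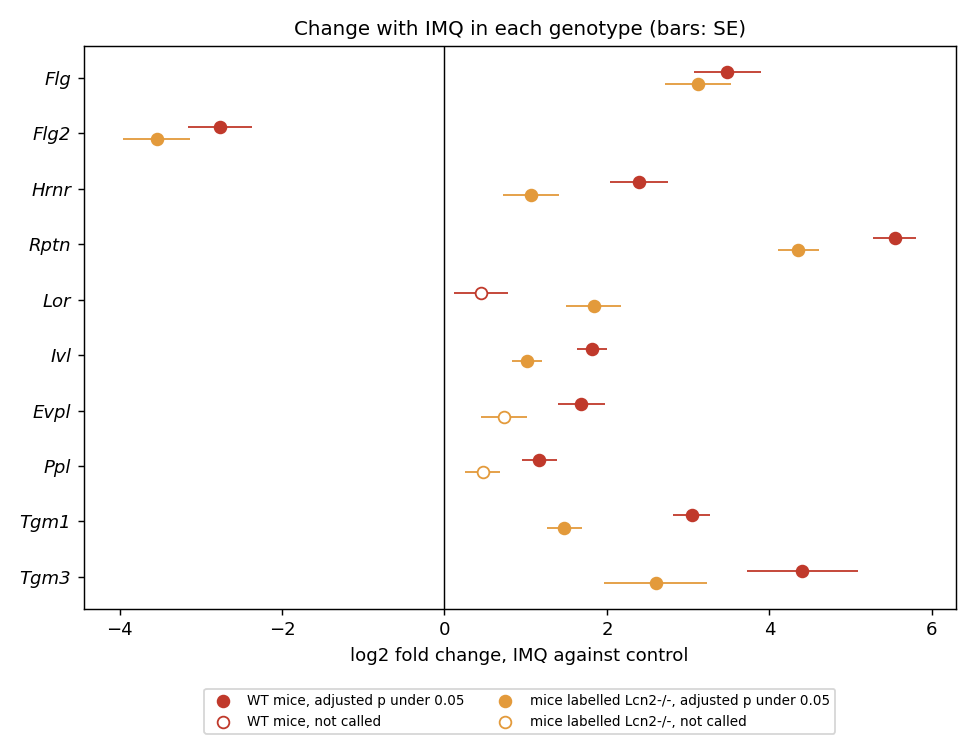
Log2 fold change of each gene with IMQ in WT mice and in mice labelled Lcn2-/- (points, bars are SE, filled where the adjusted p was under 0.05, n = 3 per group). Flg2 is the only gene left of 0 in either genotype, and Lor (WT), Evpl and Ppl (labelled Lcn2-/-) are open.

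The make-up of the gene set changed with IMQ. Levels per kilobase of exon allow genes to be compared. Those of Flg, Flg2 and Hrnr stay uncertain on this scale, because reads of their repeats are hard to place. Summed over the 10 genes, the levels (mean ± SD, n = 3) were 219.8 ± 30.2 CPM per kb in WT control and 1095 ± 132 in WT IMQ mice. They were 229.9 ± 32.6 in control and 824 ± 167 in IMQ mice labelled Lcn2-/-. Lor led in WT control mice with 84.3 ± 15.7 CPM per kb, above Ivl at 44.2 ± 9.04 and Ppl at 33.1 ± 2.42, and each of these differed from the next without overlap. The 7 genes that followed, from Evpl at 12.9 to Tgm3 at 2.90 CPM per kb, each overlapped with the next.

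After IMQ, Rptn led in WT mice with 493 ± 58.1 CPM per kb, above Ivl at 156 ± 26.9 without overlap, and Flg2 was last at 1.77 ± 0.645, below Hrnr without overlap. Ivl, Lor, Tgm1, Ppl and Tgm3 followed Rptn in that order, each overlapping with the next. In IMQ mice labelled Lcn2-/- Rptn also led (304 ± 47.7 CPM per kb), and Lor came next at 199.6 ± 68.9, overlapping with Ivl at 128 ± 24.7. The share of Rptn in the summed level went from 4.99% to 45.0% with IMQ in WT mice and from 6.44% to 37.1% in mice labelled Lcn2-/-. The share of Lor went from 38.2% to 10.5% in WT mice and stood at 24.0% and 23.8% in mice labelled Lcn2-/-. The share of Flg2 went from 5.50% to 0.159% in WT mice and from 6.0% to 0.140% in the others.

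Ratios within a library do not depend on its scaling. The geometric mean ratio of Ivl to Lor per kb was 0.523 in WT control and 1.38 in WT IMQ mice, higher in each of 3 IMQ mice than in any control mouse (two-sided exact permutation test, p = 0.1, the smallest that 3 against 3 can give). With the Lcn2-/- label, it was 1.20 without and 0.661 with IMQ, lower in each of 3 IMQ mice (exact permutation p = 0.1). The ratio thus moved in opposite directions, and that difference was not tested. It also differed between the genotypes without IMQ, by log2 1.19, with 0.440 to 0.583 in WT control mice and 0.803 to 1.86 in control mice labelled Lcn2-/- (exact permutation p = 0.1), and by log2 -1.07 after IMQ (exact permutation p = 0.1). The ratio of Tgm1 to Tgm3 went from 3.28 to 1.22 in WT mice (exact permutation p = 0.1) and from 3.89 to 1.34 in mice labelled Lcn2-/- (exact permutation p = 0.2). The ratio of Rptn to Flg went from 3.06 to 12.04 in WT mice and from 4.30 to 10.7 in mice labelled Lcn2-/- (exact permutation p = 0.1 for each). Between mice labelled Lcn2-/- and WT mice, Tgm1 to Tgm3 differed by log2 0.13 after IMQ and 0.24 without it (exact permutation p = 0.7 for each). Rptn to Flg differed by log2 -0.17 after IMQ (exact permutation p = 0.7) and by 0.49 without it (exact permutation p = 0.5). These ratios and genotype comparisons make 12 tests, none of which could reach 0.05.

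The stretch of chromosome 3 from Lor to S100a10, which lies past Rptn, held 61 tested genes, of which IMQ raised 45 and lowered 3 in WT mice. Over all genes, 14.2% were called higher and 14.3% lower, so lowered genes were fewer here than that share. The 3 lowered genes were Flg2, Sprr4 (log2 -2.28, SE 0.51, adjusted p = 0.00677), a small proline-rich gene, and Lce1m (log2 -2.46, SE 0.41, adjusted p = 0.00127), a late cornified envelope gene. Lce1m starts 256 kb before Flg, and Sprr4 773 kb before it.

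**Figure D3:**
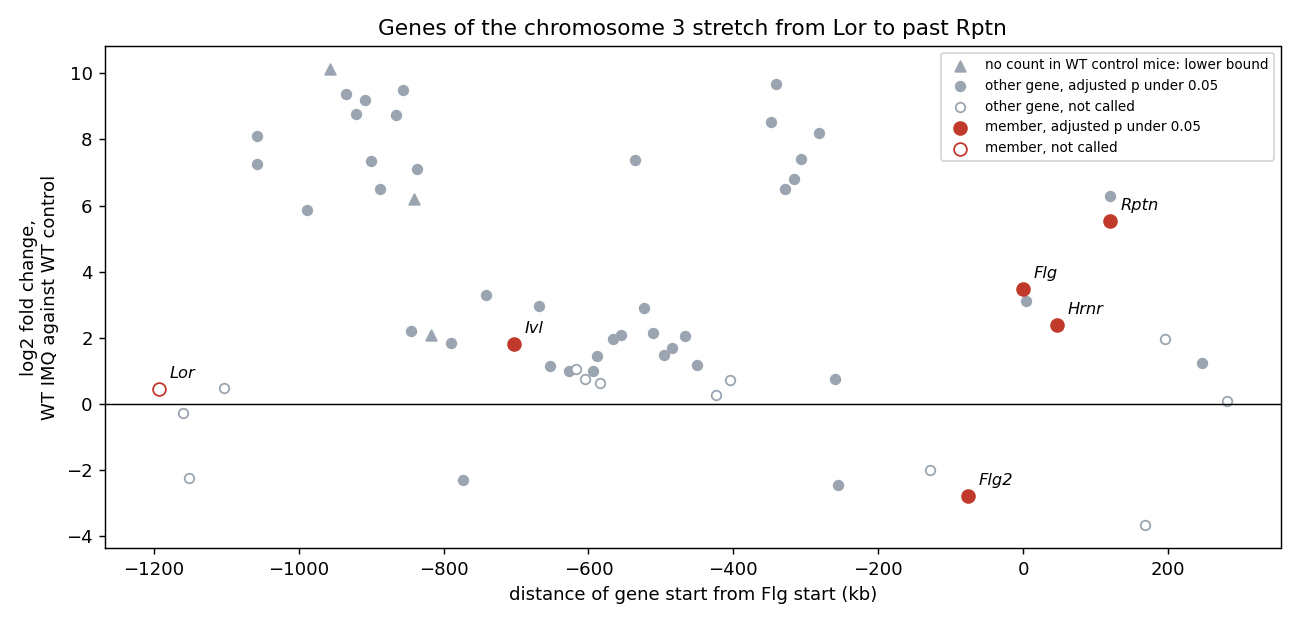
Log2 fold change with IMQ in WT mice (vertical) of the 61 tested genes from Lor to past Rptn, against the distance of the gene's lower coordinate from that of Flg (kb). Filled points were called, triangles are lower bounds for the 3 genes without a count in WT control mice, and Flg2 stands below 0 while Flg, Hrnr and Rptn stand above it.

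Other genes of cornification moved as follows in WT mice, from lists whose counts are read against 14.2% of all genes higher and 14.3% lower. Of 14 genes that cut, citrullinate or degrade profilaggrin or control its proteases, IMQ raised 9 and lowered 0 (median log2 fold change 1.17, against -0.02 over all genes). Of 22 other envelope scaffold and cross-linking genes it raised 15 and lowered 2 (median 1.18). Cnfn (cornifelin, an envelope protein) had the largest rise of that list, from 24.8 ± 5.47 to 503 ± 135 CPM (log2 4.35, SE 0.27, adjusted p = 1.71e-06), and Cst6 (cystatin M/E, an inhibitor of cathepsins) the largest fall, from 1080 ± 229 to 322 ± 161 CPM (log2 -1.75, SE 0.35, adjusted p = 0.00401). 

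Of 16 tested (17 in the table) small proline-rich (Sprr) genes, IMQ raised 15 and lowered 1, Sprr4. Their median log2 fold change was 7.73 and 7.30 with the 3 genes that had no count in WT control mice at their lower bound. One of these, Sprr2b, reached 189.9 ± 23.6 CPM in WT IMQ mice, at least 1123-fold above the floor of 3 counts per library. Sprr2 genes are close copies of each other, so reads may have been split among them. Of 21 late cornified envelope (Lce) genes, 17 rose and 1 fell, with a median of 1.97. Lce3b went from a mean of 0.103 CPM, under the floor, to 82.2 ± 21.6 CPM. Among the remaining S100-fused genes (Tchh, Tchhl1 and Crnn), 0 of 3 were called in WT mice, and their summed level ran from 10.7 to 674 CPM over WT control mice. Tchh (trichohyalin, a hair follicle protein) fell in mice labelled Lcn2-/- (log2 -6.77, SE 1.70, adjusted p = 0.0173), where hair follicle markers fell in 18 of 19 cases.

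In mice labelled Lcn2-/-, IMQ raised 7 and lowered 2 of the profilaggrin processing genes, raised 12 and lowered 2 of the other scaffold genes, raised 14 and lowered 1 of the Sprr genes and raised 15 and lowered 1 of the Lce genes, against 14.1% and 11.2% of all genes. Spink12, an inhibitor of serine proteases and the largest rise among the processing genes, went from a mean of 0.0971 CPM in WT control mice, under the floor, to 16.9 ± 2.17 CPM in WT IMQ mice.

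Keratinocyte markers moved with these genes. Of the 20 markers, IMQ raised 16 in WT mice and lowered 0, and their summed level was 6685 to 11326 CPM in WT control and 36709 to 47940 CPM in WT IMQ mice. Among mice labelled Lcn2-/-, IMQ raised 10 and lowered 1, and the sum was 7708 to 9820 CPM without and 21486 to 33007 CPM with IMQ. Krt1 and Krt10 among them also mark differentiation. Markers of several other cell types moved as well. In WT mice IMQ lowered 7 of 8 sebocyte markers (median log2 fold change -2.25), 6 of 8 skeletal muscle markers (-1.26), 4 of 10 fibroblast markers (-0.40), 6 of 19 hair follicle markers (-2.58) and 1 of 8 adipocyte markers (-0.79), raised none of these, and raised 1 and lowered 1 of 10 leukocyte markers. With the Lcn2-/- label it lowered 5 of 8 sebocyte, 4 of 8 skeletal muscle, 18 of 19 hair follicle and 1 of 8 adipocyte markers, and raised 5 of 10 fibroblast and 9 of 10 leukocyte markers. Over all genes, 14.2% were called higher and 14.3% lower in WT mice, and 14.1% and 11.2% with the Lcn2-/- label. The adipocyte counts, and the leukocyte counts in WT mice, lie near those shares and show no movement of these markers as a set. The part of the cell type markers in the changes above was not tested, but all genes were also fitted with libraries scaled to the 20 keratinocyte markers. This gives changes relative to those markers, not to the number of keratinocytes. The markers themselves responded to IMQ, with the largest rise for Krt1, from a mean of 637 to 8701 CPM in WT mice. In WT mice this scaling moved the median log2 fold change of all genes to -1.54 and gave 397 higher and 15009 lower calls among all genes, against 2633 and 2654 with TMM.

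On that scale, Rptn (log2 3.94, SE 0.38), Tgm3 (2.96, SE 0.55), Flg (2.10, SE 0.31), Tgm1 (1.55, SE 0.22) and Hrnr (0.96, SE 0.30) were still called higher in WT mice. Flg2 (-4.27, SE 0.44) and Lor (-0.99, SE 0.34, adjusted p = 0.015) were called lower, so the sign of Lor turned. Ivl (0.34), Evpl (0.21) and Ppl (-0.38) were not called, with adjusted p from 0.169 to 0.379. In mice labelled Lcn2-/- Rptn (3.75), Flg (2.51), Tgm3 (2.10), Lor (1.21) and Tgm1 (0.93) were called higher and Flg2 (-4.19) lower. There the median of all genes moved to -0.64, with 555 genes called higher and 6635 lower.

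**Figure D4:**
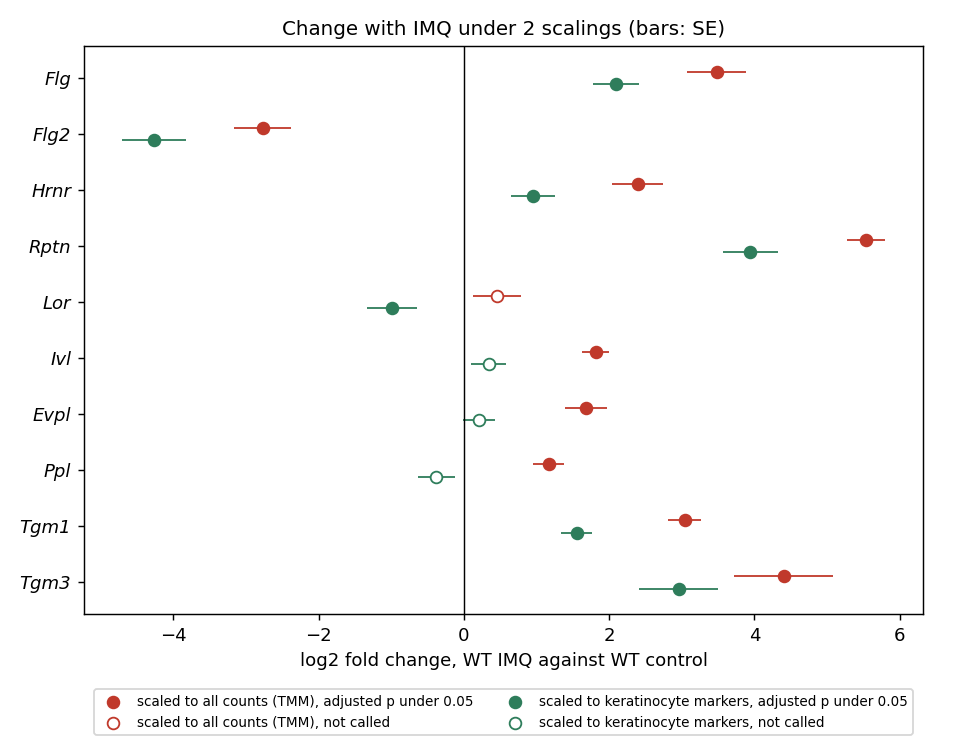
Log2 fold change of each gene with IMQ in WT mice, scaled to all counts (TMM) and to the 20 keratinocyte markers (points, bars are SE, filled where the adjusted p was under 0.05). Rptn, Tgm3, Flg, Tgm1 and Hrnr stay right of 0 and Flg2 left of it, while Lor is left of 0 only on the marker scale.

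The genotypes were compared after IMQ next. Of the 10 genes, 0 were called higher and 1, Tgm1, was called lower in mice labelled Lcn2-/- than in WT mice, where 2.19% of all genes were called higher and 2.6% lower. Tgm1 was 1.96-fold lower (log2 -0.97, SE 0.21, adjusted p = 0.0347), with 100.03 to 147 CPM against 212 to 273 CPM and no overlap. The call was lost in 5 of the 6 fits that each left out a mouse of these groups (adjusted p from 0.0181 to 0.163 over the 6), kept only without WT IMQ mouse 2. It was also lost with the replicate number as a block in the fit (adjusted p = 0.0624). By sign, 9 of the 10 genes were lower and Lor was higher, and the median log2 fold change was -0.64, against -0.02 over all genes.

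Hrnr (log2 -1.05, SE 0.34, adjusted p = 0.088), Rptn (-0.70, SE 0.22, 0.0776), Evpl (-0.69, SE 0.28, 0.145) and Tgm3 (-1.03, SE 0.60, 0.288) did not overlap between the genotypes either, all with lower values in mice labelled Lcn2-/-. With Tgm1 these are 5 of 10, where 17.3% of all genes were lower and 16% higher without overlap. Ppl (-0.58, SE 0.22), Flg (-0.45, SE 0.37), Flg2 (-0.58, SE 0.38) and Ivl (-0.28, SE 0.18) overlapped. Lor was the 1 gene with the opposite sign, at 236 to 481 CPM against 138 to 268 CPM (log2 0.79, SE 0.33, adjusted p = 0.154). DESeq2 called Hrnr (adjusted p = 0.0256) and Rptn (0.0226) lower beside Tgm1 (0.00132), where it called 1288 of all genes higher and 1371 lower.

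Cell type markers moved with this comparison too. Counts are read against 2.19% of all genes called higher and 2.6% lower. Of the 20 keratinocyte markers 6 were called lower and 0 higher after IMQ in mice labelled Lcn2-/- (median log2 fold change -0.70). Of 10 fibroblast markers 4 were called higher, and their sum was 20977 to 21903 CPM against 10861 to 11454 CPM in WT IMQ mice. Of 10 leukocyte markers 0 were called, with sums of 1971 to 2590 CPM against 1072 to 1896 CPM. Relative to the keratinocyte markers, Tgm1 stood at log2 -0.21 (SE 0.21, adjusted p = 0.407) and Hrnr at -0.33. Rptn, Flg, Flg2, Ivl, Evpl and Ppl turned to between 0.03 and 0.45 without a call. Lor was called higher (log2 1.48, SE 0.35, adjusted p = 0.0168). That scale moved the median of all genes to 0.72 and called 7127 of the 18529 genes higher and 43 lower. In the wider lists, Spink5 (an inhibitor of epidermal kallikreins, log2 -0.73, SE 0.17, adjusted p = 0.0375) was the 1 of 14 processing genes called lower, and Anxa1 (annexin A1, log2 -0.80, SE 0.16, adjusted p = 0.0276) and Scel (sciellin, log2 -0.80, adjusted p = 0.0353) were the 2 of 22 other scaffold genes called lower. No Sprr or Lce gene was called.

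**Figure D5:**
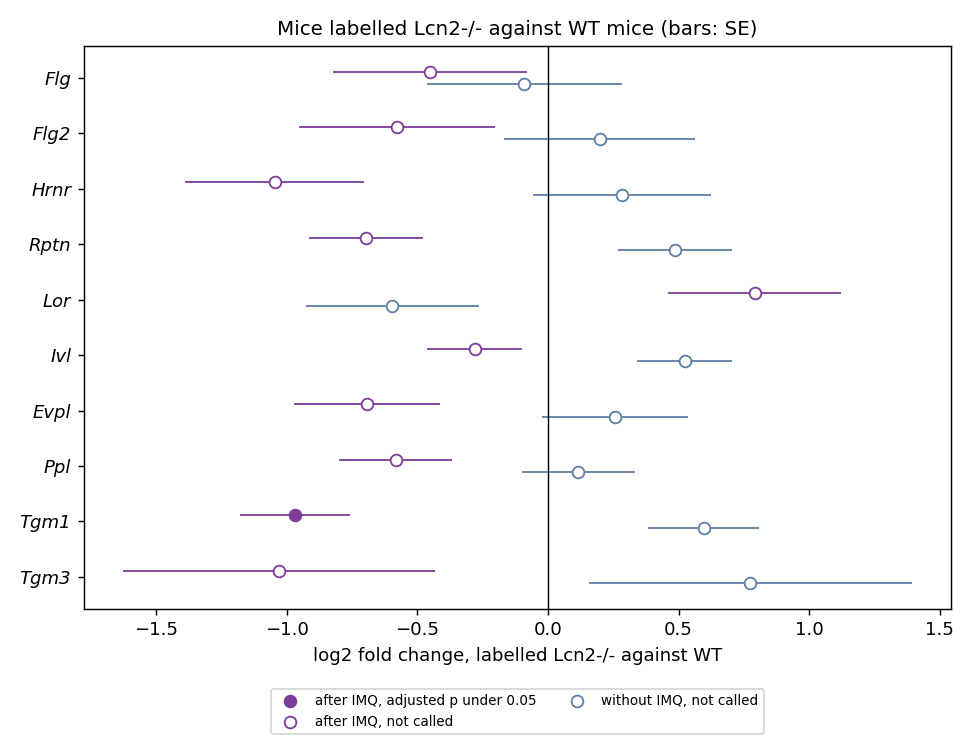
Log2 fold change between mice labelled Lcn2-/- and WT mice after IMQ and without IMQ (points, bars are SE, filled where the adjusted p was under 0.05, n = 3 per group). Only Tgm1 after IMQ is filled, and Lor is the gene right of 0 after IMQ.

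Without IMQ, 0 of the 10 genes were called in either direction by edgeR, where 0.0054% of all genes (1 gene) were called higher and 0.0054% lower. DESeq2 also called 0. With an unadjusted p under 0.05 there were 3, all with higher values in mice labelled Lcn2-/-, Ivl (log2 0.52, SE 0.18), Tgm1 (0.60, SE 0.21) and Rptn (0.49, SE 0.22), where 2.65% of all genes were higher and 3.95% lower by that criterion. Ivl was the 1 gene without overlap, at 120 to 126 CPM against 74.6 to 105 CPM, where 4.19% of all genes were higher and 5.18% lower without overlap.

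Whether IMQ moved a gene equally in both genotypes was tested as an interaction. Tgm1 alone was called (log2 -1.57, SE 0.30, adjusted p = 0.0311), where 1.37% of all genes were called higher and 0.783% lower. That is, the rise of Tgm1 with IMQ was 2.96-fold smaller in mice labelled Lcn2-/-. The call was lost in 8 of the 12 fits that each left out a mouse (adjusted p from 0.0152 to 0.103), and relative to keratinocyte markers the value was -0.62 (adjusted p = 0.116). It was also lost with the replicate number as a block (adjusted p = 0.0627). Rptn (log2 -1.18, SE 0.31, adjusted p = 0.0651), Ivl (-0.80, SE 0.26, 0.0996) and Lor (1.39, SE 0.47, 0.113) were not called by edgeR but were by DESeq2, with adjusted p of 0.00594, 0.0395 and 0.04. For this comparison DESeq2 called 1097 of all genes higher and 963 lower. Flg (log2 -0.36, SE 0.53, adjusted p = 0.708), Flg2 (-0.78, SE 0.53, 0.381), Hrnr (-1.33, SE 0.48, 0.131), Evpl (-0.95, SE 0.40, 0.174), Ppl (-0.70, SE 0.31, 0.189) and Tgm3 (-1.81, SE 0.86, 0.225) were not called. The Tgm3 value was -0.53 without control mouse 2 labelled Lcn2-/-, which had the high hair follicle sum, and reached -2.26 with another mouse left out. These comparisons share groups of mice and are not independent of each other.

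By the second rule, a fold above 2 with an unadjusted p under 0.05, 8 genes were higher and 1 was lower with IMQ in WT mice (8.4% and 9.79% of all genes). With the Lcn2-/- label 7 were higher and 1 was lower (8.59% and 8.37%). After IMQ, 0 were higher and 1, Hrnr, was lower between genotypes (3.1% and 3.35%), and without IMQ 0 were in either direction (1.35% and 0.928%). For the difference of responses, Lor was higher and 3 genes, Hrnr, Rptn and Tgm1, were lower (6.06% and 4.91%).

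The genes whose pattern over the 12 mice was closest to each member were found by the mean absolute difference in log2 CPM after centring, among 11135 genes with at least 10 CPM. For Flg these were Krt1 (0.19), Casp14 (0.22) and Calm4 (0.30), 3 genes of differentiating keratinocytes. For Flg2 they were Dapl1 (0.30), an identifier without a symbol and Bbox1 (0.31). For Hrnr they were Ggct, Krtdap and Krt10 (0.23 to 0.25), and for Rptn Serpinb3b, Cdhr1 and Slpi (0.24 to 0.31). The 12 mice include strong differences between groups, which all of these values share.

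Among scaffold genes, Evpl was closest to Pkp1 (plakophilin 1, 0.10), Myo5b and 4833423E24Rik, and Ppl to Cpeb2, Hcar2 and Dusp5 (0.12 to 0.13). Ivl was closest to Asprv1 (0.12), the protease that cuts profilaggrin, Klk7 and Cysrt1. Lor was closest to Mgp (0.27), Crct1 and Rgs5 (0.31), of which Mgp (matrix Gla protein) and Rgs5 (a gene of pericytes) are known outside keratinocytes. Tgm1 was closest to Grhl3 (0.16), a factor of late epidermal differentiation, Pak6 and Pla2g4f, and Tgm3 to Aqp3 (0.46), Gsdmc and Gjb6. Within the set, Evpl and Ppl were the closest pair (0.26), and Flg2 was the most distant, with 2.00 to its nearest member.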

How the data were processed

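RNA-seq of back skin from 12 mice was analysed. The authors deposited 1 table of raw counts, whole numbers of reads per Ensembl gene and library, made from paired reads of 150 bp. The submitters' processing notes name HISAT and the build mm8, while the identifiers match a later annotation, so positions and symbols were taken from GENCODE M21 (GRCm38), which held 91.5% of 56923 identifiers, and the counting tool is not given in the sources used here. A symbol shared by several identifiers went to that with most counts. Unmatched identifiers held 0.567% of counts.

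Counts were normalized by TMM and fitted with edgeR 4.0.16 (limma 3.58.1, R 4.3.3) as 4 group means over 12 mice, with robust quasi-likelihood and filterByExpr (minimum count 10, minimum total 15). The common biological coefficient of variation was 0.253. Calls used a Benjamini-Hochberg adjusted p under 0.05. Ratios used log2 counts with a pseudocount of 0.5, per kb of exon. DESeq2 1.42.0, other scalings and filters, a replicate block, a fold rule (fold above 2 with unadjusted p under 0.05) and each mouse left out were alternatives. The fit was tested on simulated data. The genes, marker lists and gene lists were chosen with earlier results of these data known. Outside the 10 genes, those named were the largest rise or fall of a list, Lcn2 as a check of labels, the 3 most alike to a member, or the few behind a small count, which were chosen after their values were seen. Counting floors and intervals cover counting error only, since reads carry no molecular identifiers. As a look for duplicates, the chi-square of counts per gene was computed for each pair of libraries of a group. It ran from 12.0 to 98.8, and no p-value was computed. Figures were drawn with matplotlib 3.10.9 (Python 3.11.15).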

Additional observations from a re-analysis of the deposited data

Results flagged for a closer look

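The response of Tgm1 to IMQ differed between the genotypes by the interaction test of edgeR. It was lower by log2 -1.57 in mice labelled Lcn2-/- (adjusted p = 0.0311), with a rise of log2 3.04 in WT mice and 1.48 in mice labelled Lcn2-/-. The call was lost in 8 of the 12 fits that each left out a mouse, and relative to keratinocyte markers the value was -0.62 (adjusted p = 0.116). With the replicate number as a block the adjusted p was 0.0627. All 6 IMQ mice stood above the control mice of their genotype.

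The ratio of Ivl to Lor moved in opposite directions with IMQ in the genotypes, by log2 1.40 in WT mice and by log2 -0.86 in mice labelled Lcn2-/-, in every mouse. Without IMQ the ratio was already higher by log2 1.19 in mice labelled Lcn2-/- than in WT mice, with no overlap. The difference between the IMQ shifts was not tested. Single outlying mice were not tested for, since each group has 3.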

How the results depend on the processing

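In WT mice the 8 higher and 1 lower calls among the 10 genes stood under RLE size factors, DESeq2, no filter, the compared mice only, the replicate block, the fold rule and each mouse left out (8 to 8 and 1 to 1), but scaling to keratinocyte markers gave 5 and 2. In mice labelled Lcn2-/- higher calls were 8 with DESeq2, 5 without the filter, 5 with the compared mice only, 6 with the block, 5 with marker scaling and 6 to 7 with a mouse left out. After IMQ, lower calls between genotypes were 3 with DESeq2, 2 with the compared mice only, 0 with the replicate block, 0 (and 1 higher) with marker scaling and 0 to 1 with a mouse left out. For the difference of responses, lower calls were 3 (and 1 higher) with DESeq2, 2 without the filter and 0 with the block. They were 0 (and 1 higher) with marker scaling, 3 (and 1 higher) with the fold rule and 0 to 2 with a mouse left out. Marker scaling called 4220 of all genes higher and 41 lower in that comparison. The cause of these changes was not tested.

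Signs turned under marker scaling, under which the median of all genes stood at -1.54 in WT mice, for Lor (-0.99) and Ppl (-0.38) in WT mice, Ppl in mice labelled Lcn2-/- (-0.12) and without IMQ between genotypes (-0.11), for Flg (0.25), Flg2 (0.14), Rptn (0.035), Ivl (0.45), Evpl (0.053) and Ppl (0.15) after IMQ, and for Flg (0.42), Flg2 (0.078), Ivl (0.073) and Ppl (0.26) in the difference of responses. With a mouse left out, log2 values between genotypes without IMQ ran from -0.40 to 0.20 for Flg, -0.024 to 0.44 for Flg2, -0.037 to 0.28 for Ppl and -0.50 to 1.23 for Tgm3. Genotype differences of log2 ratios ran from -0.11 to 0.36 for Tgm1 to Tgm3 after IMQ, -0.18 to 0.88 without IMQ, and -0.45 to 0.0061 for Rptn to Flg after IMQ.

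Replicate numbers name different animals, and the sources used here give no pairing by number. Correlations of deviations between same-numbered mice ran from 0.05 to 0.20 (WT), from -0.09 to 0.02 (labelled Lcn2-/-), from 0.03 to 0.09 (genotypes after IMQ) and from -0.55 to -0.02 (without IMQ). Between genotypes after IMQ, all 6 libraries correlated best with their own number, as did 4 of 6 between the WT groups. In mice labelled Lcn2-/- 0 of 6 did, and between genotypes without IMQ 0 of 6. What same-numbered libraries may share was not tested. With the block Tgm1 was no longer called after IMQ (log2 -0.98, adjusted p = 0.0624) or in the difference of responses (log2 -1.59, adjusted p = 0.0627), nor Hrnr with IMQ in mice labelled Lcn2-/- (adjusted p = 0.0597), and calls over all genes were 77 higher and 59 lower after IMQ, against 405 and 481 without it, and 7 and 3 for the difference of responses, against 253 and 145. DESeq2 gave 1288 and 1371, and 1097 and 963. Relative to the keratinocyte markers, 7127 and 43 genes were called after IMQ. Each of the 10 genes had 175 or more counts in every library, so counting error is small beside the spread between mice.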
